A study of Rattus norvegicus with 3 samples.

Results

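The genes described here encode proteins that work with 7SL RNA or vault RNA, whether or not they bind it directly. For 7SL RNA they are the signal recognition particle (SRP) proteins Srp9, Srp14, Srp19, Srp68 and Srp72, and the SRP receptor subunit Srpra. The others are the vault proteins Mvp, Tep1 and Parp4, and Ssb, the La protein. All were chosen by gene symbol. Of the 10 symbols, 9 were found among the 29684 genes of the deposited table, and Srp72 matched no gene by symbol. Their mRNA levels were set against those of the 27 rows of 7SL RNA (all rows of biotype misc_RNA) and the single vault RNA row. The question was whether the mRNAs of the proteins follow the partner RNAs.

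RNA came from extracellular vesicles, membrane-bound particles released by cells, that were collected from the culture medium of wild type rat adipose-derived mesenchymal stem cells of the inguinal region. There was 1 group of 3 libraries, replicates 1 to 3, from 3 batches of vesicles, with no treatment, no control group and no library of the source cells. The labels name neither the age and sex of the rats nor the number of animals or cultures, so the spread between libraries can be technical. Library kits of the type used prime along the whole RNA, and cDNA of ribosomal RNA was cut away before the last amplification, per the labels' protocols. The deposited gene counts summed to between 5219920 and 6786182 per library. All levels are the authors' FPKM (fragment counts scaled to gene length and library total), unless stated otherwise. Levels of different genes are thus compared per length, and their order and ratios change without that division, as given below.

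The SRP recognises the signal sequence of a secretory or membrane protein as it leaves the ribosome and docks the ribosome at the endoplasmic reticulum. In it, 7SL RNA is the scaffold: SRP9 and SRP14 bind as a heterodimer at the Alu domain, which slows elongation, while SRP19, SRP68, SRP72 and SRP54 bind the domain that reads signals. Vaults are large cytoplasmic ribonucleoprotein barrels built of major vault protein (Mvp), with telomerase-associated protein 1 (Tep1), the poly(ADP-ribose) polymerase Parp4 and vault RNA inside. La (Ssb) binds the uridine-rich 3' ends of new RNA polymerase III transcripts, a class that holds 7SL and vault RNA. Both RNAs are often seen in sequencing of vesicle RNA.

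Markers of the source cells were first read against the median nuclear protein-coding gene, which 19.9% of all genes were called above and 22.2% below. Of 7 stromal markers, Vim, Col1a1 and Itgb1 lay above it, with Vim at 172 ± 63.0 FPKM (SD, n = 3), while Thy1, Nt5e, Eng and Cd44 did not pass the test. None of 6 haematopoietic markers lay above it, Ptprc lay below and the other 5 did not pass the test. The median of these 6 was 5.73 ± 0.397 FPKM, not far below the 7.49 ± 1.28 of the 7 stromal markers. The vesicle marker Cd63 had 19.4 ± 3.09 FPKM, and the other 4 vesicle markers did not pass the test. The comparisons below use a pair of references. The median olfactory or vomeronasal receptor gene (1319 genes of chemosensory receptors of the nose) had 2.64 ± 0.303 FPKM and served as a background level. The median of 22745 nuclear coding genes had 4.83 ± 0.380 FPKM.

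All 9 partner mRNAs were measured at low to moderate levels, with means between 5.88 and 35.8 FPKM. Each lay above the median coding gene in every library, which 35.2% of nuclear coding genes also did. Of the 9, 6 lay above the median coding gene by limma with Benjamini-Hochberg adjustment over all genes: Srp14, Srp9, Srp19, Mvp, Tep1 and Ssb. The share of all genes called above it was 19.9% (21.3% of nuclear coding genes), and none of the 9 was called below it, as 22.2% of all genes were (19.6% of nuclear coding genes). For the stricter question of a level more than 4-fold above the median receptor gene on the FPKM + 1 scale, limma's treat test called 0 of the 9 at an adjusted p under 0.05, beside 1.82% of all genes and 1.59% of nuclear coding genes. At an unadjusted p under 0.05, 3 of the 9 passed (1143 of all genes), and 2 of the 9, Srp14 and Srp19, were higher in each library than 99% of its receptor genes, as were 3.43% of all genes and 3.13% of nuclear coding genes.

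**Figure D1:**
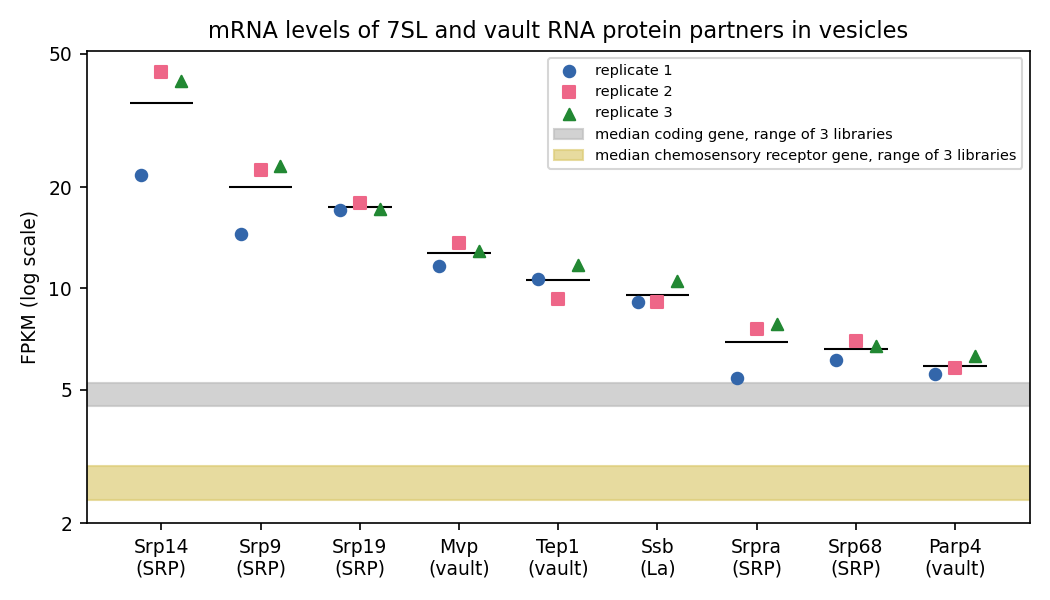
FPKM (log scale) of the 9 partner mRNAs in replicates 1 to 3, ordered by mean (black bars), with the range over the libraries of the median coding gene (grey) and of the median chemosensory receptor gene (yellow). Srp14 reaches 44.1 FPKM in replicate 2 and 21.8 in replicate 1, while Srpra, Srp68 and Parp4 lie just above the grey band.

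Per length, the mRNAs of the Alu-domain proteins had the highest means, though Srp19 exceeded Srp9 in replicate 1. Srp14 (ENSRNOG00000007512, mRatBN7.2 chromosome 3, 105442198 to 105445859) had 21.8, 44.1 and 41.4 FPKM in replicates 1, 2 and 3, from 174, 424 and 400 counts. Replicate 1 was low, at about the level that Srp9 reached in the other 2 libraries. The mean was 35.8 ± 12.2 FPKM (SD, n = 3), and 370 of 22745 coding genes had a higher mean. On the log2(FPKM + 1) scale, which understates the differences of low genes, Srp14 lay 2.59 above the median coding gene (SE 0.26, adjusted p = 0.00482, limma). Against the median receptor gene it lay 3.28 higher (SE 0.27, adjusted p = 0.118, limma treat). Without replicate 1 it passed that test (adjusted p = 0.00527, limma treat), but not without replicate 2 (adjusted p = 0.523) or replicate 3 (adjusted p = 0.727). It also passed with a pseudocount of 0.1 in place of 1 (adjusted p = 0.0475), and under the other settings tried the adjusted p ran from 0.0673 to 0.219.

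Srp9, its partner in the heterodimer (ENSRNOG00000003211, chromosome 13, 93832580 to 93840720), had 14.5, 22.5 and 23.2 FPKM in replicates 1, 2 and 3, from 155, 288 and 297 counts. Again replicate 1 was the low library. Srp9 was 1.83 above the median coding gene (SE 0.20, adjusted p = 0.00595, limma). Although both proteins occur once in the particle, Srp14 mRNA exceeded Srp9 mRNA in 3 of 3 libraries, by 0.77 ± 0.20 on the log2(FPKM + 1) scale. Srp14 in replicate 1 lay below Srp9 in the other 2 libraries, so the ranges over the libraries overlapped. An exact two-sided sign-flip test over 3 libraries cannot give a p below 0.25, whatever the values, and none was run.

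Of the other SRP proteins, Srp19, which helps SRP54 join the RNA (ENSRNOG00000020204, chromosome 18, 25931589 to 25938017), had nearly the same level in every library. It had 17.1, 18.0 and 17.3 FPKM in replicates 1, 2 and 3, a coefficient of variation of 2.75%, and lay 1.66 above the median coding gene (SE 0.12, adjusted p = 0.00237, limma). A gene without a symbol, ENSRNOG00000062486, shares 6352 bases of its span with Srp19 on the same strand, carries the SRP term in the table's annotation and had 8.52 ± 1.62 FPKM. Counts from their common part could belong to either.

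Srp68 and the receptor subunit were lower. Srp68, which with SRP72 binds 7SL RNA away from the Alu domain (ENSRNOG00000009351, chromosome 10, 101481212 to 101508035), had 6.11, 6.98 and 6.72 FPKM in replicates 1, 2 and 3. Srpra, the subunit of the SRP receptor that binds GTP and meets SRP at the membrane (ENSRNOG00000010543, chromosome 8, 33560348 to 33566470), had 5.40, 7.59 and 7.83 FPKM. Srp68 was 0.38 above the median coding gene (SE 0.14, adjusted p = 0.0779, limma) and Srpra 0.43 (SE 0.17, adjusted p = 0.101), and neither passed. Their values lay inside the range of the chemosensory receptor genes, at percentiles 77.0 to 94.1 of those genes over both mRNAs and the 3 libraries. The other partner mRNAs also lay inside that range, at higher or similar percentiles. Only Srp14 in replicates 2 and 3 exceeded every receptor gene.

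For Srp72, which pairs with SRP68, no value is given under its own symbol. The row LOC108348180 (ENSRNOG00000002100, chromosome 14, 31168293 to 31195729) is described in the table as a protein like SRP72 and lies between Arl9 and Paics, the neighbours that RefSeq gives Srp72 in its GRCr8 assembly. It had 4.47, 10.3 and 6.89 FPKM in replicates 1, 2 and 3, was lowest in replicate 1, and did not pass the test against the median coding gene (0.43, SE 0.26, adjusted p = 0.223, limma). Paics overlaps 22189 bases of it on the same strand. Srp54a, the signal-binding GTPase of the particle, had 2.70, 4.87 and 3.95 FPKM and also did not pass (-0.29, SE 0.21, adjusted p = 0.292). Per length, among the SRP mRNAs the short Alu-domain and Srp19 messages stood highest and Srp54a lowest.

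Among the vault proteins, Mvp had the highest level per length. Mvp, which forms the shell of the particle (ENSRNOG00000020182, chromosome 1, 181594734 to 181622380), had 11.7, 13.7 and 12.9 FPKM in replicates 1, 2 and 3, and lay 1.24 above the median coding gene (SE 0.14, adjusted p = 0.00624, limma). Tep1, also found in telomerase (ENSRNOG00000051706, chromosome 15, 24045878 to 24093526), had 10.7, 9.29 and 11.8 FPKM and lay 0.98 above it (SE 0.13, adjusted p = 0.00932). Parp4 (ENSRNOG00000061152, chromosome 15, 30686613 to 30828810) had 5.55, 5.79 and 6.31 FPKM, the lowest mean of the 9 mRNAs, and did not pass (0.24, SE 0.13, adjusted p = 0.201). Its rank rests on the division by length: with CPM, Parp4 was second highest of the 9 at 91.5, and it lay 2.34 above the median coding gene on the log2(CPM + 1) scale (adjusted p = 6.7e-08, limma).

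By FPKM the mRNA of the shell protein was above Parp4 in 3 of 3 libraries without overlap, and closer to Tep1. By CPM its mean was below both. Mvp exceeded Tep1 by 0.25 ± 0.22 on the log2(FPKM + 1) scale, again in 3 of 3 libraries, with overlapping ranges. In the intact particle Mvp is by far the most numerous protein. Prrt2 shares 17836 bases of its span with Mvp on the same strand and had 7.13 ± 2.73 FPKM, so part of the counts of either could come from the other.

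Ssb (ENSRNOG00000007998, chromosome 3, 54616619 to 54626203) had 9.14, 9.11 and 10.5 FPKM in replicates 1, 2 and 3, and its 3 libraries lay within their counting error of each other. It was 0.86 above the median coding gene (SE 0.13, adjusted p = 0.0115, limma). LOC680385 on chromosome 4 (149078162 to 149079657), described in the table as similar to the La protein, had 16.9, 7.58 and 10.5 FPKM, above Ssb in replicate 1 and below it in replicate 2. No source used here says how reads that match both were assigned, so the level of each is uncertain.

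Ordered by mean, the mRNAs ran from Srp14 through Srp9, Srp19, Mvp, Tep1, Ssb, Srpra and Srp68 to Parp4. Of the 8 neighbouring pairs in that order, 2 were separated, with the same order in 3 of 3 libraries and ranges that did not overlap: Srp19 over Mvp and Ssb over Srpra. For the other 6 pairs the ranges over the libraries overlapped. Within each library, however, Srp14 over Srp9, Mvp over Tep1, Tep1 over Ssb and Srp68 over Parp4 kept their order in 3 of 3, the last 2 by 0.13 ± 0.09 and 0.14 ± 0.08 on the log2(FPKM + 1) scale. Srp9 over Srp19 and Srpra over Srp68 held in 2 of 3. Over all 36 pairs of the 9 mRNAs, 29 had ranges apart. The order held per length and not by CPM (counts divided by the total of each library), where Tep1 (129) and Parp4 (91.5) came first, followed by Mvp (52.4), Srp14 (52.1), Srpra (41.2), Srp9 (39.0), Srp68 (33.6), Ssb (28.5) and Srp19 (26.6). By FPKM the order also ran with length. The lengths implied by counts and FPKM were 1002 bases for Srp14, 1039 for Srp19 and 1331 for Srp9, against 8297 for Tep1 and 10627 for Parp4. Spearman's rho between length and mean FPKM was -0.83 across the 9 mRNAs, which share libraries, and -0.04 across 21842 coding genes with a value above 0 in every library. High levels were still more frequent among short coding genes. Of the 7281 shortest, up to 1776 bases, 25.2% were called above the median coding gene, against 19.2% of the 7281 longest, from 3396 bases. Their median levels were close, at 5.02 and 4.90 FPKM. Srp14, Srp9 and Srp19 were among these shortest genes, and Tep1, Srpra, Srp68 and Parp4 among the longest.

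The levels of the RNA partners were of another order. The 27 rows of 7SL RNA, which can share reads where copies resemble each other, ran over a wide range: 7 had a mean above 1000 FPKM, 16 had a mean below 100, and 1 was at 0 in a library. The 3 highest were ENSRNOG00000055825 on chromosome 8 (58852911 to 58853190), Rn7sl1 on chromosome 6 (87636804 to 87637103) and ENSRNOG00000067948 on chromosome 6 (87839673 to 87839972), at 36927, 25390 and 12717 FPKM in replicate 1. The vault RNA row (ENSRNOG00000052373, chromosome 18, 28417454 to 28417597) had 4057, 6365 and 7586 FPKM in replicates 1, 2 and 3. Of the rows below 100 FPKM, the 4 highest, with means of 49.3 to 95.6 FPKM, lay above every partner mRNA, and the means of the others lay within the range of those mRNAs or below it.

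**Figure D2:**
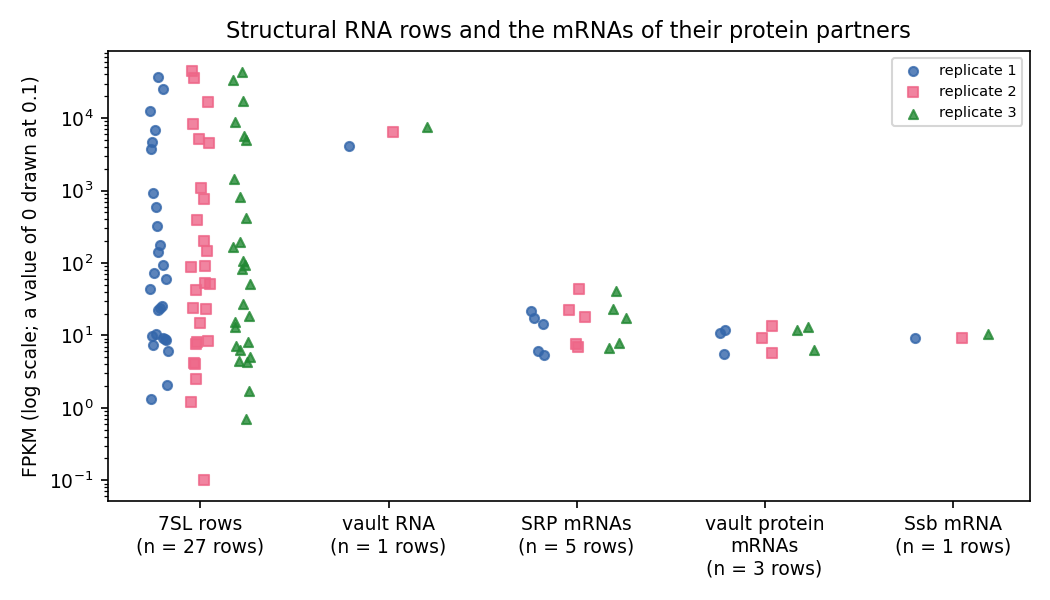
FPKM (log scale) of each 7SL row, the vault RNA row and the partner mRNAs, by library; a value of 0 is drawn at 0.1. The 27 7SL rows span several orders of magnitude, vault RNA lies between 4057 and 7586 FPKM, and the partner mRNAs lie between 5.40 and 44.1.

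Summed over its rows, 7SL RNA exceeded the summed mRNAs of the 5 measured genes of SRP and its receptor. The fold in FPKM was 1429, 1182 and 1226 in replicates 1, 2 and 3 (1279 ± 132, SD, n = 3). How reads shared between rows were counted is not known, so 1 read could enter this sum more than once. Vault RNA exceeded the summed mRNAs of the 3 vault proteins by 145, 221 and 245-fold (204 ± 52.0). Against single mRNAs, summed 7SL RNA was 3259 ± 874-fold above Srp14 and 16525 ± 1228-fold above Srp68. The highest 7SL row alone was 1254 ± 383-fold above Srp14 and 6312 ± 251-fold above Srp68. Vault RNA was 467 ± 120-fold above Mvp and 1011 ± 247-fold above Parp4. Both RNAs were far above Ssb, summed 7SL RNA by 11432 ± 1366-fold, its highest row alone by 4367 ± 445-fold and vault RNA by 622 ± 154-fold. Dividing by length weights these short RNAs: without it, with CPM, the ratios of the sums were 244 for 7SL and 4.62 for vault RNA.

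The excess was not the same for both particles. In each library the ratio of 7SL RNA, summed over 27 rows, to SRP mRNAs was higher than that of the single vault RNA row to vault mRNAs. For 7SL it stood in replicates 2 and 3 at 0.827 and 0.858 of its value in replicate 1, and for vault RNA at 1.52 and 1.68 of it.

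Across the libraries, 7SL RNA was lowest in replicate 1, with 92816, 117240 and 118243 summed FPKM, and so was each of the 11 rows above 100 FPKM. All 5 mRNAs of SRP and its receptor were also lowest in replicate 1, but to different degrees. Relative to replicate 1, Srp14 was at 2.02 and 1.90 in replicates 2 and 3, Srp9 at 1.55 and 1.59 and Srpra at 1.40 and 1.45, against 1.26 and 1.27 for 7SL RNA. Srp68 was at 1.14 and 1.10 and Srp19 at 1.05 and 1.01. Of these 5, the exact 95% Poisson intervals of replicate 1 lay apart from those of replicates 2 and 3 for Srp14, Srp9 and Srpra, and overlapped for Srp68 and Srp19. These intervals cover counting error only.

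**Figure D3:**
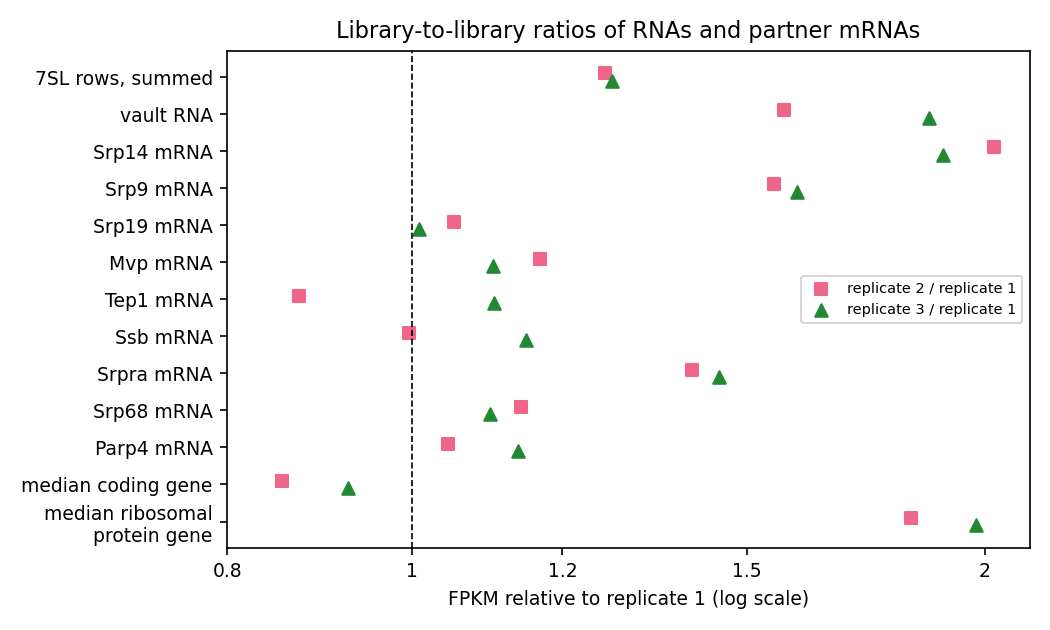
FPKM in replicates 2 and 3 relative to replicate 1 (log scale) for summed 7SL RNA, vault RNA, each partner mRNA, the median coding gene and the median ribosomal protein gene; the dashed line marks no difference. Srp14, Srp9 and Srpra lie to the right with vault RNA and ribosomal protein genes, and the vault protein mRNAs lie between 0.872 and 1.17.

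Vault RNA and the mRNAs of its proteins parted. Relative to replicate 1, vault RNA was at 1.57 and 1.87 in replicates 2 and 3, while Mvp was at 1.17 and 1.10, Tep1 at 0.872 and 1.10 and Parp4 at 1.04 and 1.14. The intervals of Mvp, Parp4 and Ssb overlapped in every pair of libraries, and those of Tep1 lay apart between replicates 2 and 3 alone. No correlation between an RNA and an mRNA is given over so few libraries.

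A low replicate 1 was shared by ribosomal protein genes, whose median stood at 1.83 and 1.98 relative to replicate 1. The median coding gene, in contrast, stood at 0.854 and 0.926, and the summed mitochondrial coding genes were highest in replicate 1, at 17195, 14935 and 16626 FPKM. Of the 9 partner mRNAs 7 were lowest in replicate 1, as were 25.7% of all nuclear coding genes and 36.9% of the 4835 called above the median coding gene. More coding genes were lowest in replicate 2, 44.1% of all and 39.4% of those called above. The part of such differences between libraries in the SRP values was not tested.

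The genes that work next to these proteins were read from lists of symbols. A list of 23 genes held the translocon, signal peptide processing and oligosaccharyltransferase, which act on the chains that SRP delivers. Of the 23, 8 lay above the median coding gene, 3 below it and 12 did not pass, beside 19.9% and 22.2% of all genes above and below. The list's median was 5.69 ± 0.549 FPKM. Sec61b, a small subunit of the translocation channel, had 15.7, 49.6 and 20.6 FPKM in replicates 1, 2 and 3 and stood 2.18 above the median coding gene (SE 0.36, adjusted p = 0.0127, limma), with replicate 2 far above the other libraries. Sec11c, a signal peptidase, had 18.4 ± 5.98 FPKM and Sec61g, another small channel subunit, 13.8 ± 6.25. Rpn1, a subunit of oligosaccharyltransferase, had 11.9 ± 2.36. Sec11a, Tram2, Ssr4 and Dad1 also lay above, and Ssr3, Sec61a2 and Spcs3 lay below. Limma's treat test called none of the 23 above the receptor background (1.82% of all genes), and 0 of them were higher than 99% of the receptor genes in each library.

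**Figure D4:**
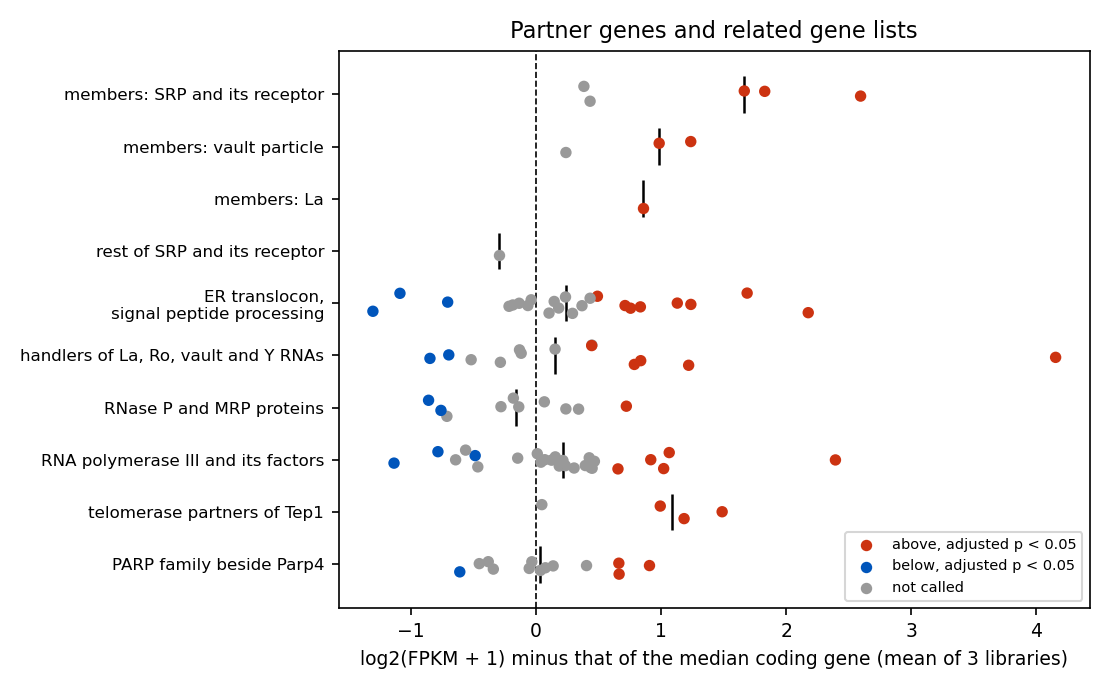
Each point is a gene, placed by its log2(FPKM + 1) minus that of the median coding gene (mean of 3 libraries), in the partner groups and the related lists; red and blue mark limma calls above and below, black bars the list medians. The SRP, vault and La partners lie at or right of 0.24, and the translocon list runs from 8 genes above to 3 below.

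A further list held genes related to the La and Ro proteins or to the handling of vault and Y RNAs. Of its 13 measured genes, 5 lay above the median coding gene and 2 below, beside 19.9% and 22.2% of all genes above and below. Ybx1, a cold shock RNA-binding protein known in human cells for sorting small RNAs into vesicles, had 58.4, 133 and 139 FPKM in replicates 1, 2 and 3 and was the only gene of the list called above the receptor background by limma's treat test. It too was lowest in replicate 1. The La-related genes Larp7, which binds 7SK RNA, and Larp1, which binds messages of the translation machinery, had 12.8 ± 2.93 and 9.44 ± 1.10 FPKM. Nsun2, the methyltransferase that modifies vault RNA, had 9.06 ± 0.559, and Zc3h12a, an RNase, 6.94 ± 0.368. Larp1b and Larp4 lay below.

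RNA polymerase III transcribes 7SL and vault RNA. A list of 27 genes held this polymerase and its factors, without a choice of those that serve these 2 RNAs. Of the 27, 5 lay above the median coding gene, 3 below and 19 did not pass. Again 19.9% and 22.2% of all genes lay above and below, so the share above was near that background. Polr3gl, a subunit of the polymerase, was highest at 23.1, 28.4 and 39.5 FPKM in replicates 1, 2 and 3, and lay 2.39 above the median coding gene (SE 0.19, adjusted p = 0.00282, limma). Gtf3c6 had 11.5 ± 3.13, Polr3d 11.2 ± 3.63 and Maf1, a repressor of the polymerase, 10.2 ± 2.61 FPKM, and Brf1 8.32 ± 1.91. Tbp, Polr3f and Gtf3a lay below.

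The relatives of Parp4 were near the coding median, with a list median of 5.06 ± 0.604 FPKM. Of 13 other PARP genes, Parp3 at 9.97 ± 1.25, Parp1 at 8.27 ± 1.09 and Parp10 at 8.23 ± 0.477 FPKM lay above it, and Tnks2 lay below. The share above was near the 19.9% of all genes. Parp6 had 6.76 ± 1.08 and did not pass. Of 4 measured telomerase partners of Tep1, Nop10, Nhp2 and Gar1 lay above, at 15.5 ± 3.23, 12.3 ± 1.15 and 11.2 ± 4.92 FPKM, while Tert, the catalytic subunit, had 5.08 ± 1.10 and did not pass. The median of these 4 was 11.5 ± 1.55 FPKM, and 3 of 4 lay above beside 19.9% of all genes.

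By Euclidean distance on log2(FPKM + 1) over the 3 libraries, the coding genes nearest to Srp14 were Tpm1 (0.0445), Rpl18 (0.0564) and Psma4 (0.0881). Those nearest to Mvp were Gtpbp4 (0.0371), Supt4h1 (0.0493) and Fstl1 (0.0568), and those nearest to Ssb were Amotl1 (0.0285), Gstm2 (0.0478) and Tln2 (0.0499). Within a distance of 0.25 there were 14 genes around Srp14, 84 around Mvp and 247 around Ssb, so such likeness over 3 libraries was common at low levels.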

How the data were processed

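Total RNA of vesicles was sequenced as stranded paired-end libraries, per the labels' protocols. The submitters' processing notes name cutadapt 1.9, FastQC and the build mRatBN7.2. Which aligner and counter were used, and how they treated strand and shared reads, is not given in the sources used here. The authors deposited whole-number counts per gene, not normalized, and FPKM. Totals implied by 13 mitochondrial genes show that the counts make up 65.5% to 70.7% of the total behind the FPKM. Lengths were derived from that total.

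The 9 genes and all lists were chosen with earlier results of these data known, and so were the receptor reference and the threshold of 2 (log2). Named genes are all members, the highest 7SL and vault RNA rows, and in each list the 4 highest and the called genes. Log2(FPKM + 1) relative to each library's reference was fitted over 29684 genes with limma 3.58.1 in R 4.3.3 (treat and eBayes, prior variance following the level), and called at an adjusted p under 0.05. The procedure was run on simulated counts that had the same dispersion for every gene, no gene lengths and only depth differing between libraries. Such counts cannot show how calls respond to other differences between libraries, such as those of replicate 1. Promoter sequences were not used, and sequences of 7SL and vault RNA were not analysed here.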

Additional observations from a re-analysis of the deposited data

How the results depend on the processing

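The 6 mRNAs called above the median coding gene were called under each alternative tried, and with CPM in place of FPKM all 9 were. Of all genes, 19.9% were called above it as reported and 31.1% with CPM, the highest share, against 10.9% without replicate 3, the lowest. CPM does not divide by length. The share of higher among all calls was 47.2% as reported, and ran from 39.7% with CPM to 62.0% with a pseudocount of 0.1, where lower calls went from 6598 to 3477 and higher calls from 5908 to 5680. The stricter call against the receptor background depended on the setting: of the 9, it called 0 as reported, 3 with CPM (Mvp, Tep1 and Parp4, when 4847 of all genes passed), 1 with a pseudocount of 0.1 (Srp14, with 819 genes) and 2 by the 99th percentile of the receptor genes (1018 genes). Leaving out a replicate gave 0 to 1 members, and 0 to 770 of all genes against 540 as reported: 0 without replicate 3, 224 without replicate 2 and 770 without replicate 1. Ratios of RNA to mRNA were 244 (7SL) and 4.62 (vault RNA) with CPM. Neighbouring pairs separated in order numbered 2 as reported, 4 after rescaling to the table's total, 3 with CPM, where the order itself changed to run from Tep1 and Parp4 to Srp19, and 3 to 7 without a replicate. Without a replicate the rule for separated pairs is easier to meet, because fewer libraries must agree and ranges can only narrow. For the other changes, except those with CPM, the cause was not tested. The order was examined under alternatives chosen after seeing the data. No paired analysis was possible because there was a single group. At 142 to 940 counts per mRNA and library, counting error limits small differences.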

Other observations

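Per length, Y RNA and Rpph1 also lay far above the mRNAs of the proteins that bind them. Dividing by length weights such short RNAs, and no ratios by CPM are given for them. The 16 rows of Y RNA, which the Ro protein binds, summed to 1855, 2063 and 2232 FPKM in replicates 1, 2 and 3, while Ro60, the gene of that protein, had 2.68, 3.28 and 3.27. The ratio was 668 ± 34.5 (SD, n = 3). Rpph1, the RNA of ribonuclease P, had 1228, 1650 and 1767 FPKM, 349 ± 66.8 times the median of 10 measured protein genes of ribonuclease P and MRP. Of these 10, Rpp25l at 8.69 ± 1.48 FPKM lay above the median coding gene and Rpp38 and Rpp40 lay below, and Pop4 at 6.39 ± 0.641, Pop1 at 5.88 ± 0.412 and Rpp14 at 5.21 ± 1.46 did not pass (limma, adjusted p under 0.05), beside 19.9% and 22.2% of all genes above and below. The RNA of RNase MRP, at 29.1, 45.7 and 50.8 FPKM, was far lower than Rpph1 and much nearer to the median of those protein genes, 4.47 ± 0.619 FPKM. Rpph1 and RNase MRP RNA were lowest in replicate 1, as 7SL and vault RNA were. The second highest Y RNA row was highest there, at 656, 498 and 543 FPKM.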
